A study of Mus musculus with 24 samples.

Results

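The Notch pathway and its Hes and Hey genes were followed on microarrays in TM3 cells, an immortalised mouse Leydig cell line, after sham treatment or exposure to nanosecond pulsed electric fields (nsPEF). The members were 10 genes given by symbol, namely the receptors Notch1, Notch2 and Notch3, the ligands Jag1 and Dll1, the glycosyltransferase Lfng, and the transcription factors Hes1, Hey1, Hey2 and Heyl. They were found through the transcript that the array annotation gives for each probe, which returned 11 of the 56605 probes on the array, with 2 probes for Lfng and 1 for each of the others. Cells in suspension received 80 pulses of 60 ns at 14 kV/cm (E groups) or were handled alike without pulses (S groups), and RNA was taken at 0, 4 and 24 h, giving the groups S0, E0, S4, E4, S24 and E24 with 4 biological replicates each. All groups came from the same cell line, and each replicate was 1 array.

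Notch signalling passes between neighbouring cells. A membrane-bound ligand of the Jagged or Delta-like family on the sending cell binds a Notch receptor on the receiving cell, the receptor is cut by ADAM proteases and by γ-secretase, and its intracellular part joins the DNA-binding protein RBPJ and a Mastermind-like protein in the nucleus to switch on genes of the Hes and Hey families. Hes and Hey proteins are transcriptional repressors, and Hes1 is known for repressing its own gene and for responding to several other stimuli as well. In the testis, Notch signalling is known for keeping fetal Leydig progenitor cells from differentiating.

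Levels are given as the log2 intensity of a probe minus the log2 of that array's 75th percentile, so that 0 is the signal below which 75% of the probes on an array lie. Such a level has no common scale between probes, and levels are compared here only within a probe. To be tested, a probe needed the scanner software's mark for a signal well above background on 2 or more arrays of some group, and 10 of the 11 member probes passed, as did 37684 probes in all. Hey2 did not pass, being well above background on 0 of 24 arrays. The probes for Notch1, Notch2, Notch3, Jag1, Hes1 and Hey1 and the brighter Lfng probe were above background on all 24 arrays. The tests are limma's moderated tests with Benjamini-Hochberg adjustment over all 37684 probes and a threshold of 0.05, and the errors of differences are the standard errors (SE) of that fit.

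The 75th percentile of the arrays ranged from 254 to 533 intensity units in sham and from 202 to 336 in nsPEF arrays, and the share of probes well above background from 57.5% to 62.1% and from 51.2% to 57.2%. Each time point was hybridised on a slide of its own and, per the file headers, the sham and nsPEF arrays lay in different rows of the slide, so that time and slide, and treatment and slide row, cannot be told apart. Of 10 Leydig cell marker genes, 9 had a probe. Star, Cyp17a1, Nr5a1 and Gata4 were above background on all 24 arrays, Hsd3b1 on at most 1 array, and Cyp11a1, Hsd3b6, Hsd17b3 and Lhcgr on none. Markers of other testis cell types were also present on all 24 arrays, namely Sox9 and Dmrt1 of Sertoli cells, Csf1r and Cd68 of macrophages, Pecam1 of endothelial cells, and Acta2 and Cnn1 of muscle-type cells. Des was above background on 22 arrays, Myh11 on up to 17 and Ddx4 of germ cells on 16. Amh, Dazl and Kit were above background on at most 2 arrays, Fshr, Sycp3, Ptprc, Adgre1 and Kdr on at most 1, and Cdh5 and Tek on none.

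The 250 bases upstream of the start are shown for 3 members with contrasting courses, Lfng, which rose to 4 h, Notch3, which fell to 4 h, and Notch2, whose differences did not pass. The sequences are from RefSeq on GRCm38.p6, which held 8 promoters for 7 of the 10 members, and they run 5′ to 3′ on the gene's strand. They were searched on both strands for GTGGGAA, the core bound by RBPJ, for the E-box CACGTG and for the N-box CACNAG, to which Hes and Hey proteins are known to bind, and the matches are in capitals.
Lfng (chr5:140607091-140607340, plus strand): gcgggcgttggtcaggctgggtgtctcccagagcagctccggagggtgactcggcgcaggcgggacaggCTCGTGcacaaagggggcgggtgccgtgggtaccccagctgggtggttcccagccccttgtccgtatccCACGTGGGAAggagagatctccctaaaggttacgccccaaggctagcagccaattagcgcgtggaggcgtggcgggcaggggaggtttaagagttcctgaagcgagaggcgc
Notch3 (chr17:32166891-32167140, minus strand): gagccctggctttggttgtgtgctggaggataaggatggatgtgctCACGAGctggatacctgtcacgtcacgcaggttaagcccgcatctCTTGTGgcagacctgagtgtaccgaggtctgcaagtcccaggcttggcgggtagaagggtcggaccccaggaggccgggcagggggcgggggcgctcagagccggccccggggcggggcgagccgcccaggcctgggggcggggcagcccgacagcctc
Notch2 (chr3:98013288-98013537, plus strand): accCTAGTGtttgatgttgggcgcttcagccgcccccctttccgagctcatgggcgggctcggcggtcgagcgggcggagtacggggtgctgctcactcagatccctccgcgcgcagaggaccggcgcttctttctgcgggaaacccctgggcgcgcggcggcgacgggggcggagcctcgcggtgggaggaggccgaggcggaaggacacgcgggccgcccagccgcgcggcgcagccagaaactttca
In Lfng the E-box at -112 and the RBPJ core at -109 shared bases and stand as 1 run of capitals, with an N-box in the form CTCGTG at -181. Notch3 held N-boxes at -204 and -159, and Notch2 an N-box at -247. Across all 32841 promoters of the table, cut to the same length, 5.41% held the RBPJ core, 6.02% the E-box and 36.7% the N-box. The matches are descriptions of these windows only. Of the other members in the table, Hey2 held an RBPJ core at -207 and Notch1 an N-box at -108, and Jag1 and Dll1 held no match. Hes1, Hey1 and Heyl had no entry.

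Most of the detected members differed between the time points, each on its own slide, in sham and in nsPEF cells, as did most of all tested probes. Hes1 fell 6.52-fold from 0 to 4 h and 16.5-fold from 0 to 24 h in sham cells, Notch3 fell 3.03-fold to 4 h and was again near its first level at 24 h, and Lfng rose 1.97-fold to 4 h. Over the 6 groups 7 of 10 tested member probes depended on time, where 80.2% of all tested probes did. From 0 to 4 h in sham cells 7 of 10 passed, 2 higher and 5 lower, against 59.1% of all probes, and from 0 to 24 h it was 6 of 10, 2 higher and 4 lower, against 36.6%. Without S24 replicate 2 the latter count was 3, since Hey1 and Dll1 no longer passed and Heyl was no longer tested. Between 4 and 24 h 6 of 10 passed, 2 higher and 4 lower, against 57.7%. In nsPEF cells 6 of 10 passed in each of these comparisons, against 61.3%, 42.2% and 56.6%. A share of members near that of all probes is not a result about the members, and the size of the changes is what is described below. The median size of the log2 difference was 0.92 over the tested member probes and 0.47 over all tested probes from 0 to 4 h in sham cells, 0.35 and 0.26 from 0 to 24 h, and 0.45 and 0.44 from 4 to 24 h. In nsPEF cells these pairs were 0.58 and 0.51, 0.41 and 0.29, and 0.59 and 0.44. Heyl and Dll1 entered the test only through S24 and S0, respectively, and both are part of these counts and medians. From 0 to 24 h in sham cells both passed, with large differences of 1.18 and -1.89. No excess of the members over all probes is therefore read from the counts or medians.

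Hes1, the main Notch-responsive repressor in many tissues, had the largest time difference among the members. Its levels were 1.96, 1.94, 1.76 and 1.75 in S0, -0.91, -0.91, -0.87 and -0.72 in S4, and -2.32, -2.33, -1.95 and -2.15 in S24. The 3 time points did not overlap, each lying wholly below the one before. The difference was -2.70 (SE 0.115) from 0 to 4 h with an adjusted p of 5.4e-14 in limma, and -4.04 (SE 0.115) from 0 to 24 h with an adjusted p of 1.03e-15. Of all 37684 tested probes, 191 had a more negative difference at 4 h and 18 at 24 h. Separation of groups was common on these arrays. S4 lay wholly above S0 in 29.2% and wholly below in 28.1% of all tested probes, and S24 wholly above S0 in 20.3% and wholly below in 21.8%.

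In nsPEF cells the course of Hes1 was the same in direction. The levels were 1.80, 1.99, 1.94 and 1.96 in E0, -1.28, -1.32, -1.11 and -0.89 in E4, and -2.43, -1.90, -2.30 and -1.98 in E24. Again each time point lay wholly below the one before. The log2 difference was -3.07 (SE 0.115) from 0 to 4 h and -4.08 (SE 0.115) from 0 to 24 h, that is a fall of 8.42-fold and 16.9-fold. The fall from 4 to 24 h passed the test as well, 2.52-fold in sham cells and 2.01-fold in nsPEF cells. Among all tested probes E4 lay wholly above E0 in 30.1% and wholly below in 25.3%, and E24 wholly above E0 in 20.9% and wholly below in 17.2%.

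**Figure D1:**
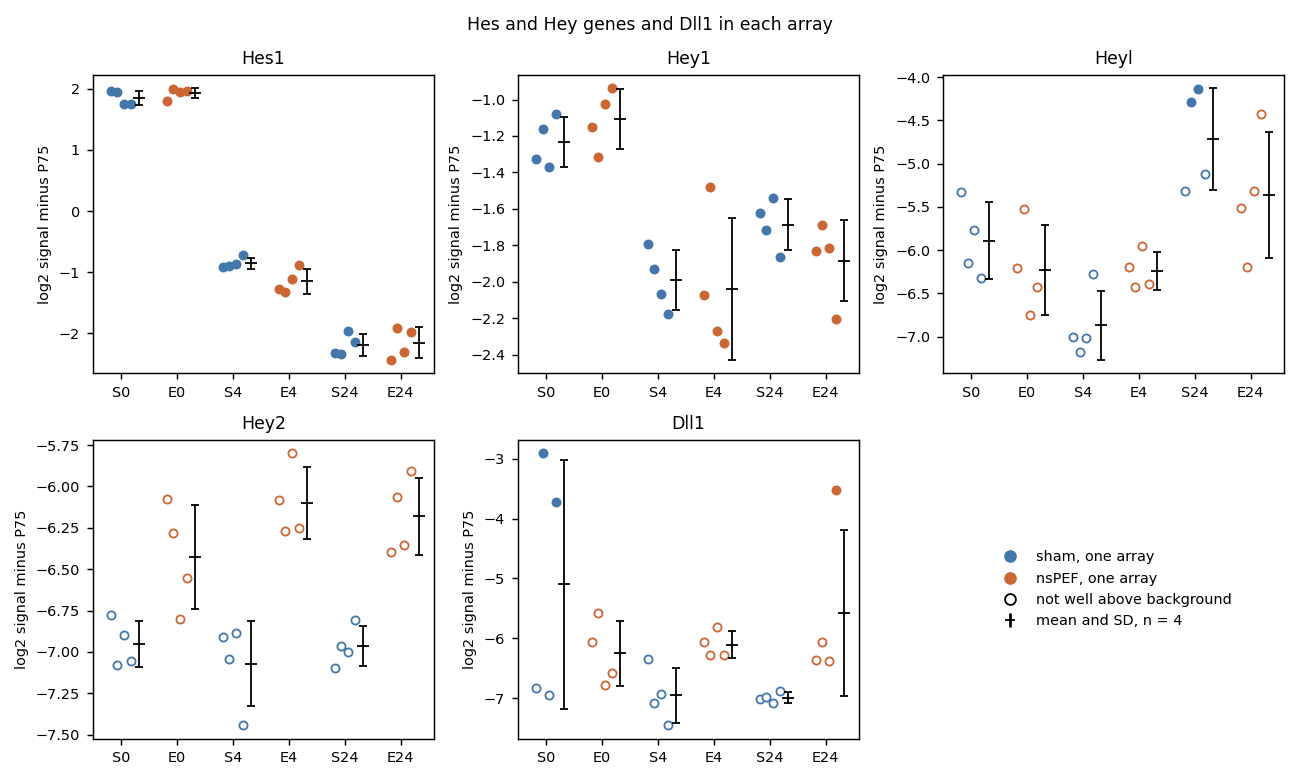
Log2 signal minus the array's 75th percentile (P75) for Hes1, Hey1, Heyl, Hey2 and Dll1, with 1 point per array, open where the probe was not well above background, and the mean and SD of 4 arrays. Hes1 stepped down from means of 1.85 and 1.92 at 0 h to -2.19 and -2.15 at 24 h, while nearly all points of Hey2, Heyl and Dll1 are open.

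Hey1 belongs to the sister family of Notch-responsive repressors, and it fell at 4 and 24 h in both treatments. Its levels were -1.33, -1.16, -1.37 and -1.08 in S0, -1.79, -1.93, -2.07 and -2.17 in S4, and -1.62, -1.72, -1.54 and -1.87 in S24. All S4 and S24 arrays lay below all S0 arrays, and S24 overlapped S4. Hey1 fell by 0.76 (SE 0.153) to 4 h with an adjusted p of 0.000243 in limma, and by 0.45 (SE 0.153) to 24 h with an adjusted p of 0.0258. Scaling on spike-in RNA turned the 24 h difference to 0.24. The 24 h call in sham cells was lost under 8 of 42 alternatives, this scaling included. Among them were leaving out S0 replicate 2 or 4 and leaving out S24 replicate 2 or 4.

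The levels of Hey1 in nsPEF cells were -1.15, -1.31, -1.02 and -0.94 in E0, -2.07, -1.48, -2.27 and -2.33 in E4, and -1.83, -1.69, -1.81 and -2.20 in E24. Here too both later groups lay wholly below 0 h. The differences were -0.93 (SE 0.153) at 4 h and -0.78 (SE 0.153) at 24 h, and both passed. With spike-in scaling that at 24 h was -0.30 with an adjusted p of 0.105 and no longer passed. Between 4 and 24 h Hey1 differed by 0.30 in sham cells, with a 95% interval from -0.02 to 0.62, and by 0.15 in nsPEF cells, with an interval from -0.16 to 0.47, and neither passed.

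Heyl and Hey2, the remaining Hey genes, were near or below background. Heyl was well above background on 2 arrays, both of S24, with levels of -5.31, -4.29, -4.14 and -5.12 in S24 against -5.32, -6.15, -5.76 and -6.33 in S0 and -7.00, -7.17, -7.01 and -6.28 in S4. All S24 arrays lay above all S0 arrays and above all S4 arrays. With the dim group set to the lowest signal well above background on each array, the S24 mean stood 1.12-fold above S0 and 1.17-fold above S4. Only 2 of the 4 S24 arrays were well above background, so these folds are not lower bounds. The adjusted p in limma on the values as measured was 0.0117 against S0 and 2.14e-05 against S4. The probe entered the test only through S24, the group found high, so these p-values do not support the difference. With all values floored at the background the adjusted p was 0.166 against S0 and 0.0723 against S4, and with the normexp background the differences were -0.17 and 0.24 and neither passed. From 0 to 4 h both sham groups were below background, as were E0, E4 and E24, and no fold is given. The fit nevertheless passed for S4 against S0 and for E24 against E4 (adjusted p 0.0374 in limma, and 0.0555 with the replicate block). These calls were lost or turned under 5 and 12 of 37 alternatives, respectively. Hey2 lay between -7.44 and -5.80 on all arrays, and none of these is a measured level.

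Notch3, a receptor known from vascular smooth muscle and pericytes, showed a dip and a return. Its levels were 1.81, 1.63, 1.69 and 1.69 in S0, 0.09, 0.07, -0.04 and 0.31 in S4, and 1.36, 1.38, 1.36 and 1.47 in S24. The 4 h arrays lay far below both other time points, and the 24 h arrays a little below 0 h. The difference was -1.60 (SE 0.0647) from 0 to 4 h with an adjusted p of 2.45e-14 in limma, and 1.29 (SE 0.0647) from 4 to 24 h with an adjusted p of 1.06e-12. At 24 h Notch3 remained 1.24-fold lower than at 0 h (-0.31, SE 0.0647), but this difference turned to 0.39 with spike-in scaling, which moved the median of all tested probes between these groups by 0.70.

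In nsPEF cells Notch3 took 1.72, 1.80, 1.60 and 1.62 in E0, 0.11, 0.09, 0.24 and 0.22 in E4, and 1.32, 1.32, 1.37 and 1.32 in E24. The dip at 4 h was again complete, without overlap. Notch3 fell by 1.52 (SE 0.0647) to 4 h and rose by 1.17 (SE 0.0647) from 4 to 24 h. At 24 h it was 0.35 (SE 0.0647) below 0 h, or 0.13 above it with spike-in scaling.

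Notch2, the receptor that acts in many developing organs, kept a narrow range. All 24 arrays lay between 3.00 and 3.22, with group means from 3.08 (E4) to 3.18 (E0). The 6 groups overlapped, and the adjusted p for time was 0.254. The 95% interval of the difference in sham cells was -0.10 to 0.10 at 4 h and -0.05 to 0.14 at 24 h. In nsPEF cells the 4 h difference was -0.10, with an interval from -0.196 to -0.004 and an adjusted p of 0.0649 in limma. It did not pass here, but it passed under 10 of 42 alternatives. At 24 h the interval in nsPEF cells was -0.14 to 0.05. Notch2 did pass for time under other scalings, with a 24 h difference in sham cells of 0.74 on the spike-in scale and a 4 h difference of -0.12 after quantile normalization.

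Notch1, the receptor best known from T cell development, was the most scattered of the members detected on all arrays. The levels were -2.04, -1.80, -2.02 and -2.54 in S0 and -2.16, -1.58, -1.77 and 1.21 in E0, the last being E0 replicate 4. At 4 h they were -2.56, -1.91, -2.23 and -1.19 in S4 and -1.50, -1.57, -0.46 and -0.95 in E4, and at 24 h -1.89, -1.98, -2.02 and -1.65 in S24 and -1.92, -1.47, -1.28 and -1.07 in E24. Sham and nsPEF arrays overlapped at each time point, as did the 3 time points within each treatment, and the SD was 1.54 in E0 against 0.32 in S0. No time difference passed, and the intervals were wide, from -0.92 to 1.18 for 4 against 0 h in sham cells. In nsPEF cells the 4 h difference of -0.05 became 0.72 without E0 replicate 4 and then passed, with an adjusted p of 0.0468 in limma.

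**Figure D2:**
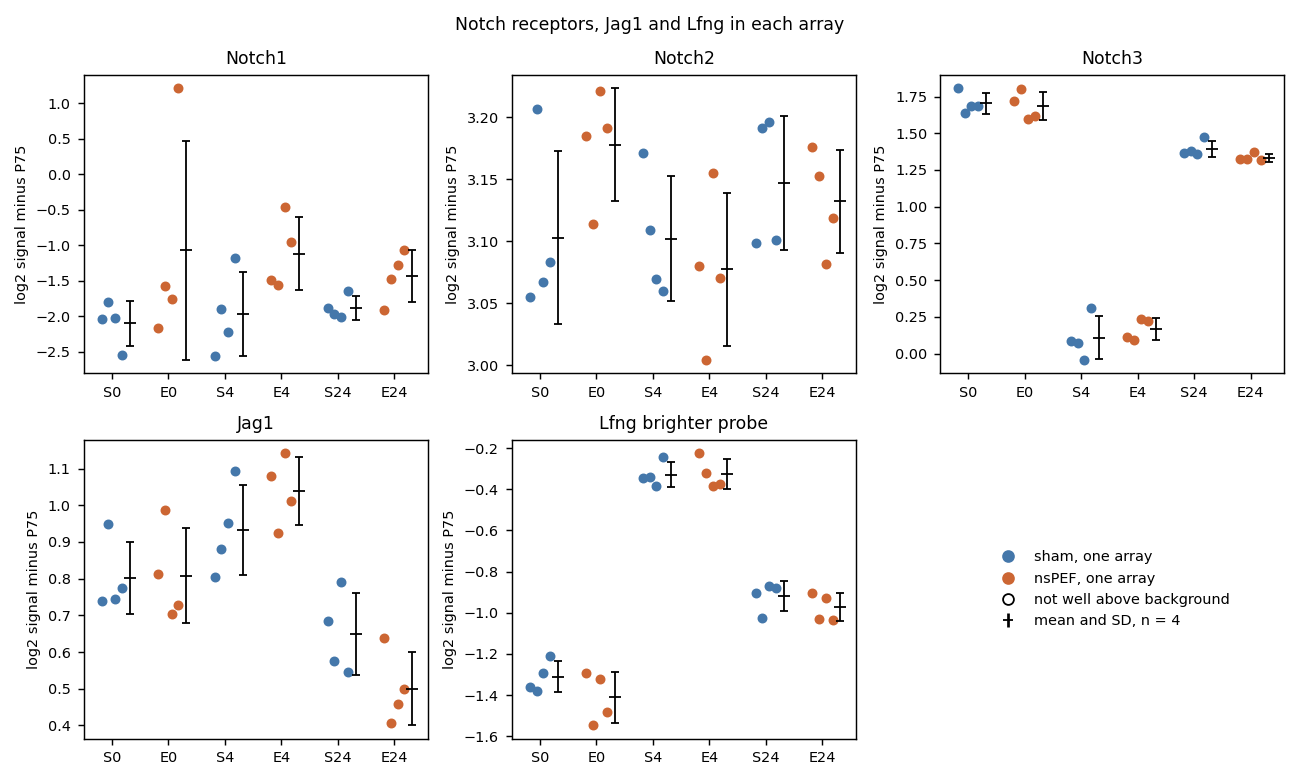
Log2 signal minus the array's 75th percentile (P75) for Notch1, Notch2, Notch3, Jag1 and the brighter Lfng probe in each array, with the mean and SD of 4 arrays beside the points and a separate vertical scale per gene. Notch3 dipped and Lfng peaked at 4 h in sham and nsPEF cells alike, while 1 E0 array of Notch1 stood at 1.21, above all others.

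Jag1, a ligand, moved within a narrow range. Its levels were 0.74, 0.95, 0.74 and 0.78 in S0, 0.80, 0.88, 0.95 and 1.09 in S4, and 0.68, 0.58, 0.79 and 0.55 in S24. S24 lay wholly below S4, and S0 overlapped both. The fall from 4 to 24 h was 0.28 (SE 0.0796) with an adjusted p of 0.00469 in limma, while the differences from 0 h were 0.13 (95% interval -0.04 to 0.30) and -0.15 (-0.32 to 0.01) and did not pass.

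The levels of Jag1 in nsPEF cells were 0.81, 0.99, 0.70 and 0.73 in E0, 1.08, 0.92, 1.14 and 1.01 in E4, and 0.64, 0.41, 0.46 and 0.50 in E24. E24 lay wholly below E0 and E4, and E4 overlapped E0. Jag1 rose by 0.23 (SE 0.0796) to 4 h (adjusted p 0.0166 in limma, and 0.176 with the percentile taken over the detected probes). This call was lost under 7 of 42 alternatives, among them leaving out E0 replicate 3 or 4 or E4 replicate 3. Jag1 fell by 0.54 (SE 0.0796) from 4 to 24 h and was lower at 24 than at 0 h by 0.31 (SE 0.0796). The Jag1 changes also depended on the scaling. With spike-in RNA the difference from 0 h was 0.54 in sham and 0.17 in nsPEF cells at 24 h. That from 4 to 24 h was 0.37 in sham cells.

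Dll1, the Delta-like ligand among the members, was well above background on S0 replicates 2 and 4 and on E24 replicate 4 only. Its values were -6.82, -2.91, -6.94 and -3.72 in S0 and -6.36, -6.06, -6.38 and -3.51 in E24, and lay between -7.45 and -5.58 in the other groups. The 3 detected arrays stood apart from the rest of their own groups. The fit passed for S4 (adjusted p 0.0342) and S24 (adjusted p 0.0478) against S0 in limma. These calls were lost under 6 and 25 of 37 alternatives, respectively. The probe entered the test only through S0, the group found high, so these p-values do not support the difference. The S0 mean over all 4 arrays did not exceed the background limit of the later groups, and no fold is given.

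Lfng encodes Lunatic fringe, which adds a sugar to Notch receptors in the Golgi and shifts their response between Delta-like and Jagged ligands. The brighter of its probes read -1.36, -1.38, -1.29 and -1.21 in S0, -0.34, -0.34, -0.39 and -0.24 in S4, and -0.90, -1.03, -0.87 and -0.88 in S24. The 3 time points did not overlap, with the highest levels at 4 h. This probe rose by 0.98 (SE 0.0616) to 4 h with an adjusted p of 2.16e-11 in limma and stayed 0.39 (SE 0.0616) above 0 h at 24 h. The fall of -0.59 (SE 0.0616) from 4 to 24 h turned to 0.06 with spike-in scaling.

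In nsPEF cells the same probe read -1.29, -1.55, -1.32 and -1.48 in E0, -0.23, -0.32, -0.38 and -0.38 in E4, and -0.90, -1.03, -0.93 and -1.03 in E24. Again all 3 time points were separate. The brighter probe rose by 1.08 (SE 0.0616) to 4 h and was 0.44 (SE 0.0616) above 0 h at 24 h. The dimmer probe gave 0.86 (SE 0.15) in sham and 1.28 (SE 0.15) in nsPEF cells for 4 against 0 h, in the same direction, but was above background on 1 of 4 arrays in E0 and 2 of 4 in E24. Its sham difference at 4 h shrank to 0.08 with the normexp background and did not pass there. For 24 against 0 h the dimmer probe gave 0.23 in sham cells, with overlap, which did not pass (adjusted p 0.256 in limma). In nsPEF cells it gave 0.39, also with overlap (adjusted p 0.043), and this call was lost under 15 of 41 alternatives.

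**Figure D3:**
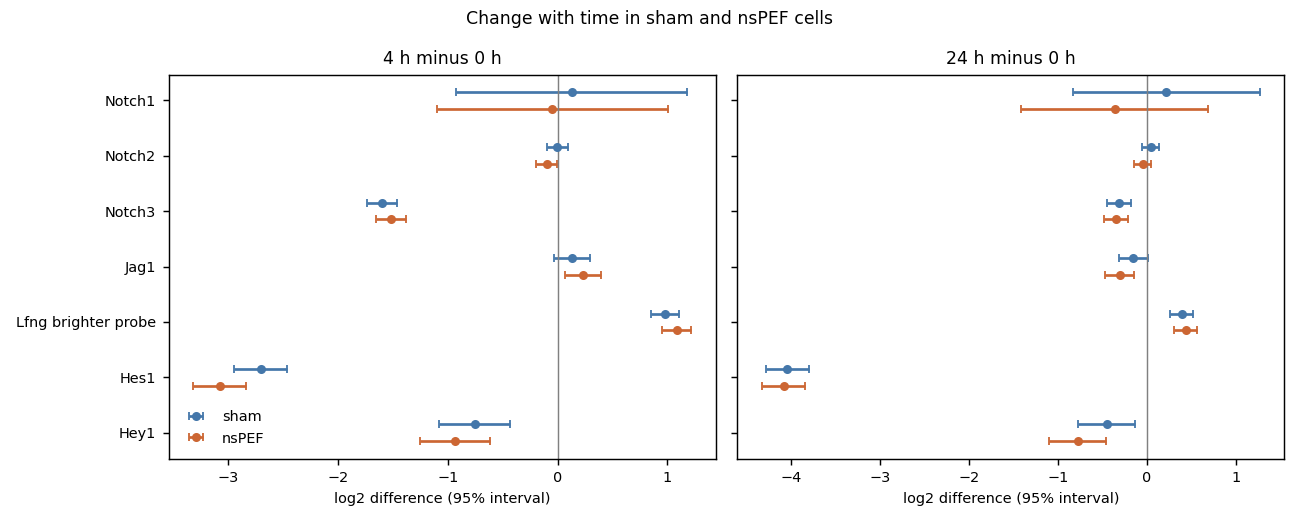
Log2 difference from 0 h at 4 h (left) and 24 h (right) with its 95% interval for the 7 member probes detected on all arrays, in sham and nsPEF cells. Hes1 lies far to the left at both times and Notch3 at 4 h. With spike-in scaling several 24 h differences change sign, those of Notch3 and Jag1 in both treatments, of Hey1 in sham cells and of Notch1 and Notch2 in nsPEF cells.

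Members of the pathway differed in the genes whose course was most like theirs. Over the 24 arrays and 17900 candidate probes of other genes, Hes1 correlated most with Tcim (Pearson r 0.995). Next came Nr4a1 (0.994), an orphan nuclear receptor of the immediate-early type, and Ier2 (0.990), an immediate-early gene. Notch3 correlated most with Polr3gl, Agap2 and Slc9a3r1 (r 0.993 to 0.994), and Lfng with B4galt5, a galactosyltransferase, Usp31 and Fam171a1 (r 0.984 to 0.986). For Hey1 the closest was Efcab11 (r 0.941), for Jag1 Egfr (0.922), the epidermal growth factor receptor, for Notch1 Dock9 (0.804) and for Notch2 Braf (0.706). Among the members Notch3 and Lfng ran opposite to each other (r -0.95), whereas Hes1 and Notch3 had an r of 0.42 and Hes1 and Hey1 of 0.72. These values describe arrays that share 3 time points and slides.

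Exposure to nsPEF itself was the other comparison of the design. No member probe passed for nsPEF against sham over the 3 time points, where 8.84% of all tested probes did, and 2 of 10, Notch1 and the dimmer Lfng probe, had an unadjusted p under 0.05. At single time points 0 of 10 passed at 0 h (0.127% of all probes), at 4 h (3.31%) and at 24 h (4.82%) in limma, and 1, 1 and 0 had an unadjusted p under 0.05. The interaction of time and treatment passed for 0 of 10, with 1 unadjusted, against 0.377% of all probes. Leaving out any single array changed none of these 0 counts.

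The intervals of these differences are given on the 75th percentile scale. For Hes1, nsPEF minus sham at 0 h gave 0.07 (95% interval -0.17 to 0.31), at 4 h -0.30 (-0.54 to -0.06), and at 24 h 0.03 (-0.21 to 0.28). At 4 h the E4 and S4 arrays overlapped in 1 array of E4, the adjusted p was 0.15 in limma, and the two-sided exact permutation test of 4 against 4 arrays gave p = 0.0857, where the smallest possible is 0.0286. The change from 0 to 4 h in nsPEF cells minus that in sham cells was -0.37 (interval -0.71 to -0.03) on the log2 scale, with an adjusted p of 0.497 in limma, and did not pass.

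For Notch3 the 3 differences between nsPEF and sham lay between -0.06 and 0.06, and for Notch2 between -0.02 and 0.07. With spike-in scaling the 4 h difference was 0.25 for Notch3 (adjusted p 0.0351 in limma) and 0.30 for Jag1 (adjusted p 0.0375), and both then passed. On the main scale the 95% intervals for Notch3 were -0.15 to 0.12, -0.08 to 0.19 and -0.20 to 0.07 in the order of time. For Notch2 they were -0.02 to 0.17, -0.12 to 0.07 and -0.11 to 0.08 in the same order. Jag1 differed by 0.01, 0.11 and -0.15 in the order of time, the last with an interval from -0.32 to 0.02. The brighter Lfng probe differed by -0.10, 0.00234 and -0.05, and Hey1 by 0.13, -0.05 and -0.20, none of which passed.

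Notch1 had the largest difference among the members detected on all arrays. The values at the 3 time points in order were 1.03 (95% interval -0.02 to 2.07), 0.85 (-0.20 to 1.90) and 0.45 (-0.60 to 1.49). Without E0 replicate 4 the first of them was 0.26. Over the 3 time points it was 0.78 (SE 0.29) with an adjusted p of 0.0971 in limma, and it passed only with array quality weights (0.91, adjusted p 0.0404) among the alternatives run. The probe lies in row 30 of the 384 rows of the array. The 426 tested probes of similar row and signal, this one included, had median differences of 0.04, 0.19 and 0.09 at the 3 time points. The part of the array position in the Notch1 value was not tested.

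Some values below background also separated the nsPEF from the sham arrays. For Hey2, nowhere detected, all E4 arrays lay above all S4 arrays and all E24 above all S24 arrays, with means of -6.10 against -7.07 and -6.18 against -6.97. Such a separation was seen in 7.62% of all tested probes at 4 h and in 7.11% at 24 h. Hey2 is not among the tested probes, and the share among probes never above background was not counted. Dll1 showed the same separation at 4 and 24 h, with 1 array of E24 detected, while at 0 h the mean of Heyl was lower in nsPEF (-6.23 against -5.89). Apart from that array, these differences are between signals not well above background and give no expression change.

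**Figure D4:**
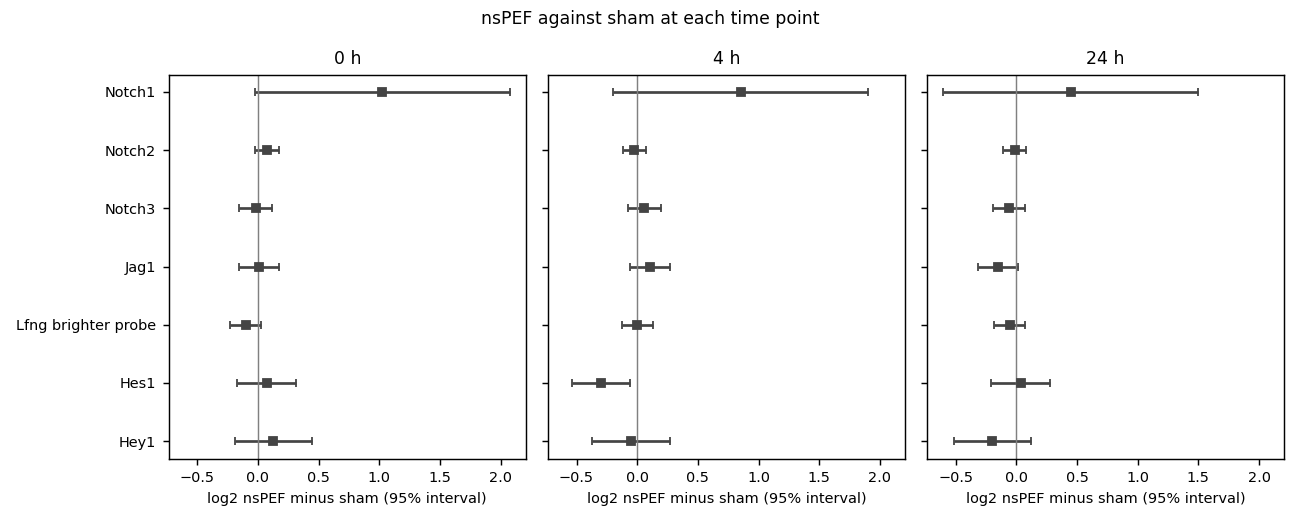
Log2 difference nsPEF minus sham with its 95% interval at 0, 4 and 24 h for the 7 member probes detected on all arrays. All intervals but that of Hes1 at 4 h include 0, and those of Notch1 are the widest.

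Around the members, 57 other genes of the pathway were listed, and all had a probe, 99 in all, of which 88 probes of 50 genes were tested. From 0 to 4 h in sham cells 28 of these probes rose, 38 fell and 22 did not pass, where 29.4% and 29.7% of all tested probes rose and fell, and their median difference was -0.10 against -0.01 over all. From 0 to 24 h 10 rose, 31 fell and 47 did not pass, against 16.9% and 19.7%, with a median of -0.10 against -0.00096.

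Among the enzymes that process the receptor, 19 probes of 10 genes, 2 rose and 13 fell to 4 h, with a median of -0.35. The γ-secretase subunit Aph1c fell by 2.57 (SE 0.0803) on the log2 scale. In the group for endocytosis and turnover 7 of 17 probes rose and 8 fell, among them Neurl1b, a ubiquitin ligase for Notch ligands, which fell by 3.18 (SE 0.118). In the nuclear complex 6 of 14 probes rose and 4 fell. Maml3, a Mastermind-like coactivator, fell by 2.44 (SE 0.09), while both Rbpj probes, named here after their values were seen, rose by 0.77 (SE 0.0683) and 1.03 (SE 0.0862). Of 23 corepressor probes 8 rose and 7 fell, and Tle2, a Groucho-type corepressor, fell by 2.48 (SE 0.0928). A further receptor, Notch4, also named after its values were seen, fell by 2.15 (SE 0.18) on the 1 tested probe of its 2. The other Notch4 probe was well above background on 0 arrays and was not tested. The other ligands had 2 higher and 1 lower of 4 tested probes, the glycosyltransferases 1 higher and 2 lower of 5, and the other Hes and target genes 2 higher and 2 lower of 5.

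**Figure D5:**
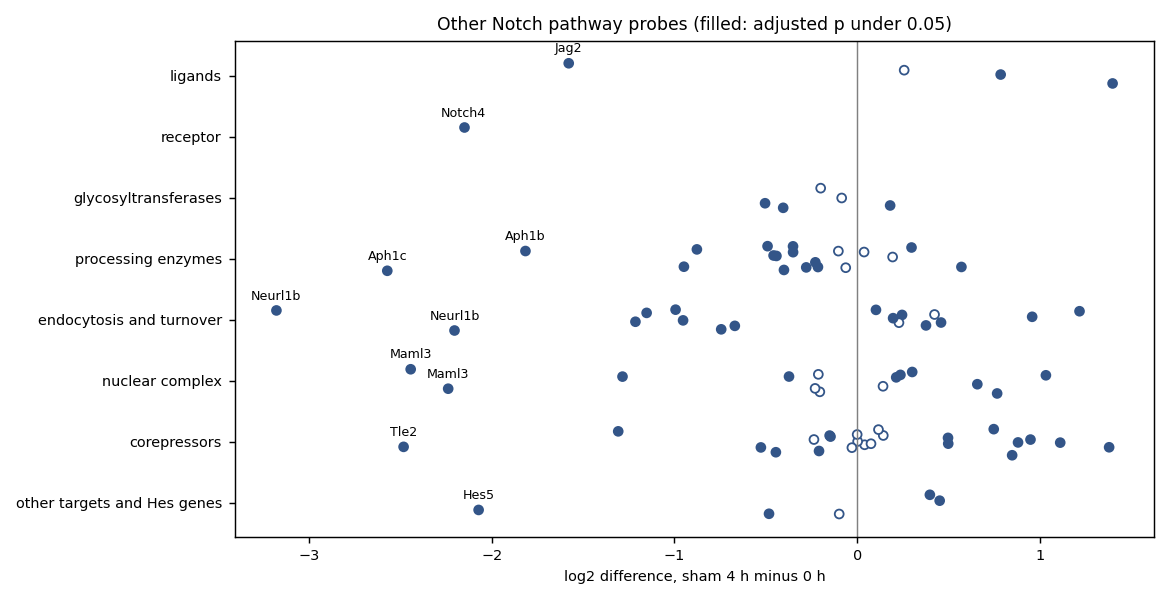
Log2 difference between 4 and 0 h in sham cells for the 88 tested probes of the other pathway genes, 1 point per probe and 1 line per role, filled where the adjusted p is under 0.05. The points spread to both sides of 0, and those beyond -2 are probes of Neurl1b, Aph1c, Tle2, Maml3, Notch4 and Hes5, of which that of Hes5 and the nearer one of Neurl1b were above background on 5 of 24 arrays.

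Between nsPEF and sham over the 3 time points 1 of these 88 probes was higher and 6 were lower, against 4.39% and 4.44% of all tested probes. The largest were Neurl1b (-0.25, SE 0.0681, adjusted p 0.0305), Aph1a, a γ-secretase subunit (-0.20, SE 0.0388, adjusted p 0.00584), Adam17, a protease (-0.12, SE 0.0353, adjusted p 0.0421), and Mib2, a ubiquitin ligase for Notch ligands (-0.11, SE 0.0323, adjusted p 0.0478), all in limma. Mib2 did not pass with the replicate block (adjusted p 0.0557). None of these 4 passed with spike-in scaling or when the values were centred by spot row and signal. The other probes of Aph1a differed from sham by -0.16, -0.08 and 0.03, which did not pass. At single time points 0 of 88 passed at 0 h, 3 at 4 h, all higher, and 1 higher and 1 lower at 24 h, near the shares of all tested probes of 0.127%, 3.31% and 4.82% or below them.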

How the data were processed

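RNA of 24 samples (4 biological replicates in each of 6 groups) was hybridised by the authors to single-colour Agilent mouse arrays. The deposited scanner files, made with Agilent Feature Extraction 12.0 per the labels, hold background-subtracted and detrended intensity values in arbitrary units that were not scaled between arrays, with a mark for signals well above background. The deposited log2 values, made by the authors with a shift to the 75th percentile and a median baseline per probe, served as an alternative. The array number limits the precision.

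Intensities of unmarked spots were averaged for each of 56605 probes, transformed to log2 and reduced by the array's 75th percentile. Means of the 6 groups were fitted to 24 arrays in R 4.3.3, using limma 3.58.1. The study tested time, treatment and their interaction by analysis of variance, and this plain form without moderation was an alternative. A fold against an undetected group was taken against the lowest signal well above background. It is not a lower bound where arrays of the higher group were undetected too. The procedure was tested on simulated data.

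The members, lists and tests were chosen with earlier results of these data known. Genes named were all members with every probe, the 4 other pathway probes that changed most from 0 to 4 h in sham cells and the 4 that differed most between nsPEF and sham among those passing, and the genes most correlated with each member. Rbpj, Notch4 and Hes5 were added after their values were seen. Alternatives were other scalings (quantile, spike-in, detected probes), normexp background with an offset of 50, a floor at the background, other filters, marked spots kept, centring in 24 bands of rows and 4 signal classes, 1 probe per gene, array weights, a replicate block, the time point alone, and leaving out arrays or replicate numbers.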

Additional observations from a re-analysis of the deposited data

Results flagged for a closer look

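In 66 sets of 4 arrays (11 probes in 6 groups) the highest or lowest array was compared with the others, and in 2 sets its gap to the nearest, as a share of the range, exceeded Dixon's 95% critical value. Chance gives this in about 1 of 20 sets. For Notch3 in E24, replicate 3 read 1.37 against 1.32 for the next array, a gap of 0.873 of a narrow range. For Dll1 in E24, replicate 4 read -3.51 against -6.06, a gap of 0.889 of the range, and it was the only array of that group well above background for this probe.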

How the results depend on the processing

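Of 5272 values recomputed under an alternative, 5045 stayed on their side of the threshold with no turn of a called direction, 147 of them with the other sign where neither value passed. Of the nsPEF against sham calls, Mib2 was lost under 30 of 42 alternatives, Adam17 under 24, Neurl1b under 15 and Aph1a under 4. With spike-in scaling, which raised the median of all probes by 0.70 at 24 h in sham cells, the 24 h against 0 h difference became 0.39 (Notch3), 0.54 (Jag1) and 0.24 (Hey1) in sham and 0.43 (Notch2), 0.13 (Notch3) and 0.17 (Jag1) in nsPEF cells. That of 24 h against 4 h in sham cells became 0.37 (Jag1), 0.061 (brighter Lfng probe) and 0.018 (dimmer Lfng probe). Heyl turned to -0.17 for S24 against S0 with normexp, and to -0.083 for E24 against E4 and 0.63 for nsPEF against sham with the floor. Notch1 for E4 against E0 turned to 0.72 without E0 replicate 4 and 0.66 without replicate 4 of every group, and ranged from -0.50 to 0.72 with arrays left out. The falls of Hes1 and Notch3 and the rise of the brighter Lfng probe to 4 h kept their direction and passed under every alternative run. The cause of these turns was not tested.

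For nsPEF against sham over all times, 0 member probes passed, but 1 with quantile normalization, 2 with the floor, 1 without a filter and 1 with array weights. At 4 h it was 2 with spike-in scaling, 2 with the floor and 1 without a filter, and at 24 h 1 with quantile normalization and 1 without a filter. With single arrays or replicate numbers left out, the counts ranged from 6 to 7 (time), 5 to 7 (S4 against S0), 3 to 6 (S24 against S0, 3 without S24 replicate 2), 5 to 7 (S24 against S4), 5 to 7 (E4 against E0), 5 to 7 (E24 against E0) and 5 to 6 (E24 against E4), and stayed at 0 for treatment and interaction. The study describes parallel work on a shared cell suspension for a replicate, but whether the array numbers mark suspensions is not given in the sources used here. Deviations of same-numbered arrays correlated over 0.1 in 7 of 12 pairs (numbers 1 and 4 at all times, number 2 at 4 h only, number 3 never). Of the 24 arrays, 9 were closest to their own number. With the replicate block the count for E24 against E4 went from 6 to 5, through Heyl, Mib2 no longer passed for treatment (adjusted p 0.0557), and no other call changed.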
